A study of Sus scrofa with 8 samples.

Results

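Splicing factors and heterogeneous nuclear ribonucleoproteins (hnRNP proteins) were examined in endometrium, the inner lining of the uterus, of 4 Meishan and 4 Yorkshire gilts on day 12 of gestation, with 1 Affymetrix Porcine Genome array per gilt. The members were all probesets (groups of short probes designed against 1 transcript sequence) whose gene symbol began with SRSF, SFRS, SF3A, SF3B, SNRP, HNRNP, HNRP, LSM or PRPF, or was SF1, U2AF1, U2AF2, SRRM1 or SRRM2. The rule found 109 probesets of 65 genes among 23999 probesets. Symbols came from the array annotation for 106 of them. The other 3 probesets, of SNRPA1, SFRS18 and PRPF39, carried a symbol only in the study's list of differing probesets, so they had been selected on their difference in these same gilts. U2AF1 had no named probeset.

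Meishan is a prolific Chinese breed and Yorkshire a European breed. Gilts of both breeds received no treatment that the sources describe, were mated to boars of their own breed at an early estrus (the second, or the one after it), and all carried elongated conceptuses. Their ages and any further genotype were not given in the sources used here. The study describes a piece of uterus close to where the horns join, with endometrium taken over all of its lumen. Every value is therefore a mixture of epithelium, stroma, vessels and other cells, and fewer cells of a type cannot be told apart from less RNA per cell. The study describes the genomes of the breeds as phylogenetically distinct, and sequences under the probes were not checked. A breed difference in how RNA binds the probes therefore cannot be told apart from one in RNA amount.

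The spliceosome removes introns from nuclear pre-mRNA. U1 small nuclear ribonucleoprotein (snRNP) binds the 5′ splice site, SF1 and the U2AF heterodimer recognise the branch point and the 3′ splice site, and U2 snRNP with its SF3A and SF3B subcomplexes replaces SF1 before the U4/U6.U5 tri-snRNP joins. SR proteins usually favour the use of an exon, and hnRNP proteins often oppose it, so their balance shapes alternative splicing in most tissues.

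The deposited signals are linear, in arbitrary units. Signals were put on the log2 scale and centred on the median of each array, so a log2 difference is Meishan minus Yorkshire relative to the typical probeset. A difference was called at a limma adjusted p under 0.1. Signals below are the centred values on the linear scale, listed in the order of gilts 1 to 4 of Meishan and then 1 to 4 of Yorkshire. They are compared between gilts. Where levels of different probesets are set side by side or summed, they describe signal and not RNA amount.

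The members were bright and most differed little between breeds. Their median mean signal was 887 against 179 for all probesets, and 99 of the 109 had a mean of at least 64 in both breeds. The median size of the log2 difference was 0.26, against 0.34 for all probesets, and the median standard deviation (SD) between gilts of one breed was 0.29 against 0.44. Toward Meishan lay 50 members and toward Yorkshire 59, with a median difference of -0.03 beside 0.02 for all probesets. The sign of that median turned under every other scaling tried, but the median of all probesets moved too and stayed the higher one. The members gave 0.032 beside 0.084 without further scaling, 0.0071 beside 0.0104 after quantile and 0.0031 beside 0.0049 after cyclic loess normalization.

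Both called members, a probeset of SF1 and a probeset of HNRNPH2, were higher in Yorkshire. That is 1.83% of the members, beside 0.908% of all 23999 probesets. An unadjusted limma p under 0.05 was reached by 16 members (14.7%) and by 14.8% of all probesets, which are close. By direction, 13 of the 16 were higher in Yorkshire and 3 in Meishan, where all probesets gave 6.96% and 7.79%. The breeds were separated without overlap at 16 members (14.7%, beside 10.1% of all probesets), 12 with Yorkshire higher and 4 with Meishan higher, beside 5.09% and 5.01%. The size of that tilt depended on the scaling, while Yorkshire kept the larger count. The counts were 10 and 7 without further scaling (4.19% and 5.69% of all probesets), 10 and 7 after quantile normalization (4.66% and 4.39%) and 11 and 6 after cyclic loess normalization (4.80% and 4.37%). At the unadjusted limma p they were, in the same order, 13 and 5 (5.63% and 9.18% of all probesets), 11 and 6 (6.97% and 6.77%) and 11 and 6 (7.15% and 6.61%). With centred arrays and without the 3 probesets named only in the study's list, the counts were 10 and 3 at the unadjusted p and 9 and 4 without overlap. The share at the unadjusted p was then 12.3%.

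**Figure D1:**
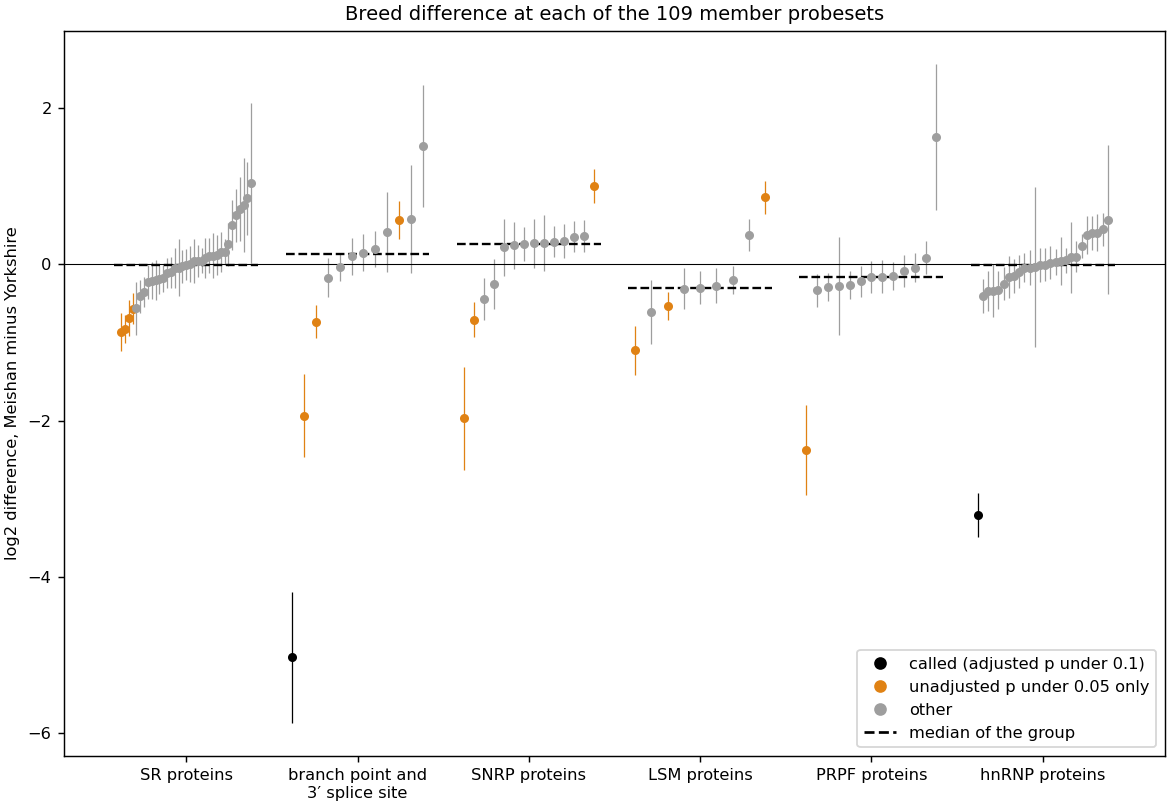
Log2 difference, Meishan minus Yorkshire, of each of the 109 member probesets in 6 role groups (points, with bars of 1 standard error from limma, n = 4 gilts a breed), and the median of each group (dashed). The 2 called probesets, of SF1 and HNRNPH2, lie at -5.03 and -3.21, and most others lie within 1 unit of 0.

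SF1 binds the branch point sequence in the first complex on an intron. At its probeset Ssc.30179.1.A1_at the signals were 87.8, 157, 20.0 and 9.45 in Meishan and 1097, 1061, 1853 and 1376 in Yorkshire gilts. The lowest Yorkshire gilt read 1061 and the highest Meishan gilt 157, and the Meishan gilts differed widely among themselves. The log2 difference was -5.03 (SE 0.83, limma adjusted p = 0.0624). This call was lost when any one of Meishan gilts 3 and 4 and Yorkshire gilts 1 to 4 was left out (adjusted p between 0.104 and 0.151) and in an unmoderated linear model (0.120), while the difference stayed between -5.68 and -4.33.

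The other SF1 probesets did not show a difference of that size. At Ssc.29048.1.S1_a_at the signals were 40.4, 32.01, 10.96 and 76.5 in Meishan and 109, 148, 126 and 114 in Yorkshire gilts. Again every Yorkshire gilt lay above every Meishan gilt, but the difference of -1.94 (SE 0.53) was not called (adjusted p = 0.173). At Ssc.29048.2.S1_at no gilt exceeded 16.2 in either breed, and the difference was 0.57 (SE 0.69).

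HNRNPH2 belongs to the hnRNP H family, which binds runs of G in pre-mRNA. At Ssc.3216.2.A1_at the signals were 91.8, 70.3, 74.7 and 64.8 in Meishan and 917, 642, 431 and 891 in Yorkshire gilts. The lowest Yorkshire gilt, at 431, lay well above the highest Meishan gilt, at 91.8. The log2 difference was -3.21 (SE 0.28), a fold of 9.22, with a limma adjusted p of 0.00790. The call held whichever single gilt was left out (adjusted p between 0.00961 and 0.0341).

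The second HNRNPH2 probeset, Ssc.3216.1.A1_at, is from the same transcript cluster and behaved otherwise. Its signals were 1186, 531, 488 and 552 in Meishan and 842, 662, 667 and 1169 in Yorkshire gilts, and the breeds overlapped. The difference was -0.34 (SE 0.34, adjusted p = 0.687), with Meishan gilt 1 far above the other Meishan gilts.

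PRPF39 is the counterpart of a yeast U1 snRNP protein. At Ssc.9461.1.A1_at, one of the probesets that entered through the study's own list, the signals were 64.6, 205, 159.6 and 44.9 in Meishan and 393, 563, 1029 and 300.4 in Yorkshire gilts. The breeds did not overlap, and the difference of -2.37 (SE 0.58) is a description only. At Ssc.9448.1.A1_at the signals were 946, 1259, 1049 and 737 in Meishan and 1233, 1444, 1155 and 1133 in Yorkshire gilts, with overlap and a difference of -0.33 (SE 0.21). At Ssc.12960.1.S1_at, where Meishan gilt 4 read 41.0 and Yorkshire gilt 3 read 34.0 against 119 to 222 in the others, it was -0.28 (SE 0.63).

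**Figure D2:**
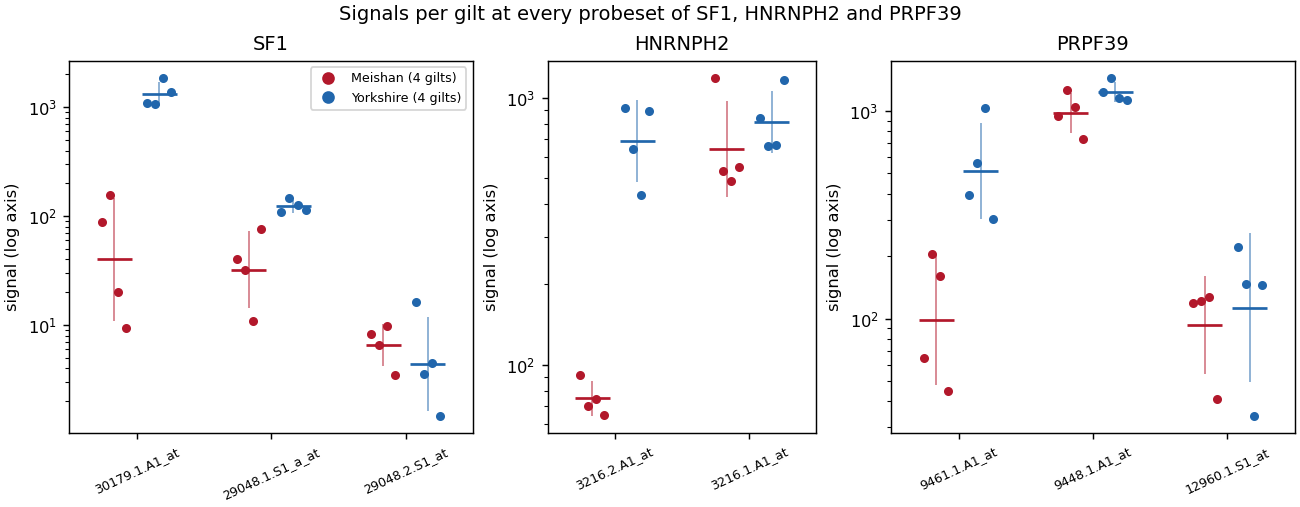
Signal of each gilt (points, log axis) at every probeset of SF1, HNRNPH2 and PRPF39, with the geometric mean (line) and 1 SD on the log2 scale (bar) of each breed, n = 4 gilts. The breeds stand far apart at Ssc.30179.1.A1_at, Ssc.3216.2.A1_at and Ssc.9461.1.A1_at and overlap at Ssc.3216.1.A1_at and Ssc.9448.1.A1_at.

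Whether the probesets of one gene gave different breed differences was tested on their log2 ratio within each gilt, in which the scaling of an array cancels. The 24 genes with 2 to 6 probesets gave 79 pairs, many of which share a probeset, and the p-values were adjusted over all 5788 such pairs of 2538 genes on the array. Of the 79 pairs 3 were called (3.80%, beside 5.43% of all pairs), and 18 pairs of 9 genes had an unadjusted p under 0.05 (22.8%, beside 18.0%). Those shares include pairs with a probeset named only in the study's list, which was selected on its difference in these gilts. Among the pairs named by the array annotation alone, 1 of 75 was called (1.33%), beside 0.378% of 5022 pairs, and 15 had an unadjusted p under 0.05 (20.0%, beside 12.9%). The probesets of 13 of the 24 genes lay on both sides of 0 (12 under each other scaling).

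The called pairs belonged to HNRNPH2, SF1 and PRPF39. For HNRNPH2, both of whose probesets are named by the annotation and gave signals of at least 64 in every gilt, the ratio of Ssc.3216.1.A1_at to Ssc.3216.2.A1_at was higher in Meishan by 2.87 on the log2 scale (SE 0.30, adjusted p = 0.00882). It was called in all 19 alternatives. The called SF1 pair, at 5.60, sets Ssc.30179.1.A1_at against Ssc.29048.2.S1_at, whose signals were no higher than 16.2, so nearly all of it is the difference of -5.03 already given. It was 4.42 with signals below 32 set to 32, had no value with a mean signal of at least 64, and was not called without Meishan gilt 4 (0.110), without Yorkshire gilt 3 (0.105), with annotation names only (0.115) or with the replicate number as a block (0.136). The ratio of Ssc.29048.1.S1_a_at to Ssc.30179.1.A1_at, the SF1 probesets with the higher signals, differed by 3.09 (SE 1.03) and was not called (adjusted p = 0.166). The PRPF39 pair, at 2.04, rests on Ssc.9461.1.A1_at, which the study had selected on these gilts, and is given as a description.

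**Figure D3:**
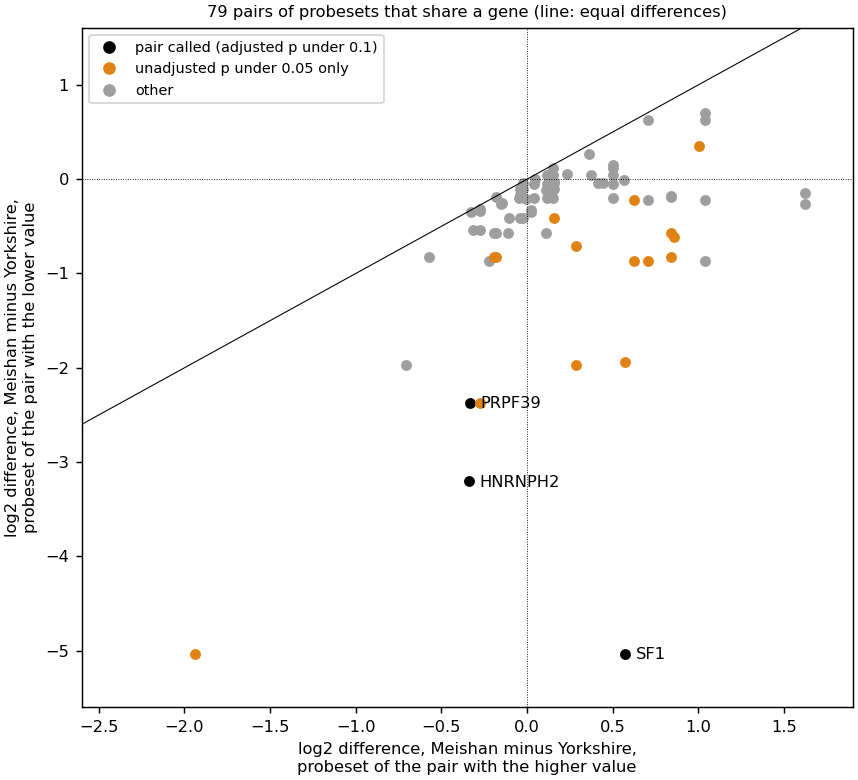
Log2 differences, Meishan minus Yorkshire, of the 2 probesets of each of 79 pairs that share a gene, with the higher value on the horizontal axis and the lower on the vertical. Points on the line have equal differences, and the 3 called pairs, of SF1, HNRNPH2 and PRPF39, lie far below it.

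Among the SR and SR-related proteins, which bind exonic enhancers or bridge splicing factors through arginine and serine repeats, no probeset of 35 was called. Toward Meishan lay 17 and toward Yorkshire 18, with a median of -0.01, and this balance turned to 21 and 14 without further scaling, 22 and 13 after quantile and 20 and 15 after cyclic loess normalization (medians 0.06, 0.02 and 0.02). The medians of all probesets were 0.08, 0.01 and 0.00 in the same order. An unadjusted p under 0.05 was reached by 4 (11.4%, beside 14.8% of all probesets), and by 2 after quantile or cyclic loess normalization. The 4 were all higher in Yorkshire. They were 2 probesets of SRSF10, one of SRRM2 and that of SFRS18, which entered through the study's list.

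SRSF10 is an SR-related protein that represses splicing when it is dephosphorylated. At Ssc.21960.1.S1_at the signals were 389, 362, 513 and 419 in Meishan and 751, 781, 788 and 648 in Yorkshire gilts, with no overlap and a difference of -0.83 (SE 0.18, adjusted p = 0.117). At Ssc.4160.1.A1_at they were 417, 541, 509 and 367 in Meishan and 762, 714, 658 and 575 in Yorkshire gilts, again without overlap, and the difference was -0.57 (SE 0.20, adjusted p = 0.241). The remaining 3 probesets overlapped between breeds, at -0.18 (SE 0.17) for Ssc.9463.1.S1_at, -0.19 (SE 0.19) for Ssc.14292.1.A1_at and 0.84 (SE 0.47) for Ssc.12345.1.A1_at. Ssc.21960.1.S1_at fell just short of the call and passed it in 6 of 19 alternatives (adjusted p between 0.0396 and 0.260 over all of them).

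SRRM2 is a large scaffold protein of nuclear speckles. At Ssc.13255.1.A1_at the signals were 1585, 1357, 1364 and 1124 in Meishan and 1985, 1897, 3563 and 2725 in Yorkshire gilts, with every Yorkshire gilt above every Meishan gilt. The difference was -0.87 (SE 0.25, adjusted p = 0.185). Its other 4 probesets overlapped between breeds, and 3 of them lay toward Meishan. They were at -0.22 (SE 0.22), 0.62 (SE 0.34), 0.70 (SE 0.41) and 1.04 (SE 1.02). The 3 toward Meishan had low signals, at 37.2 to 105 (Ssc.26874.2.S1_at), 32.8 to 116 (Ssc.26874.1.S1_at) and 4.79 to 76.7 (Ssc.19450.1.S1_at). The ratio of Ssc.13255.1.A1_at to Ssc.26874.2.S1_at differed by -1.49 (SE 0.42), which was not called (adjusted p = 0.112).

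SFRS18, an arginine and serine rich nuclear protein, was measured by 1 probeset that came from the study's list, at 946, 1726, 1339.6 and 1167 in Meishan and 1855, 2180.2, 2368 and 1801 in Yorkshire gilts. The breeds did not overlap, and the difference was -0.69 (SE 0.23). The classical SR proteins differed less. SRSF6, with 6 probesets, ranged from -0.20 to 0.50, SRSF1 with 3 from -0.57 to 0.11, and the single probesets of SRSF2, SRSF3, SRSF4, SRSF5 and SRSF7 from -0.36 to 0.25. SRSF11, with 5 probesets, ranged from -0.41 to 0.16, and both probesets of SRSF9 (-0.21 and -0.01) and of the coactivator SRRM1 (0.04 and 0.00) lay close to 0. None of these had an unadjusted p under 0.05. SRSF12, a close relative of SRSF10, read 535, 141, 151 and 263 in Meishan and 164, 55.5, 130.5 and 307 in Yorkshire gilts, with overlap and a difference of 0.76 (SE 0.60).

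Of the 12 probesets for recognition of the branch point and 3′ splice site, 7 lay toward Meishan and 5 toward Yorkshire. SF3B5, a small subunit of SF3B, read 1511, 985, 1345 and 1438 in Meishan and 2507, 2189.8, 2332 and 1732 in Yorkshire gilts. Every Yorkshire gilt lay above every Meishan gilt, with a difference of -0.74 (SE 0.21, adjusted p = 0.185). SF3A1, a subunit of the U2 snRNP, lay the other way at 1199.7, 1109.8, 1410.4 and 1108 in Meishan and 644, 637, 1173 and 895 in Yorkshire gilts. The breeds overlapped at Yorkshire gilt 3, and the difference was 0.57 (SE 0.24, adjusted p = 0.331).

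SF3B1, which clamps the branch helix, gave -0.04 (SE 0.17) at Ssc.3000.1.S1_at. At Ssc.12295.1.A1_at it gave 0.41 (SE 0.51), where Yorkshire gilt 3 read 498 and the other 7 gilts 1889 to 2695. U2AF2, which binds the polypyrimidine tract, read 73.5, 162, 149 and 137 in Meishan and 83.8, 90.7, 7.62 and 63.0 in Yorkshire gilts. Yorkshire gilt 3 was far below all others there too, and the difference of 1.51 (SE 0.78) was not called (adjusted p = 0.412). The remaining SF3A and SF3B subunits overlapped between breeds, with SF3A3 at 0.15 (SE 0.24), SF3B2 at -0.17 (SE 0.25), SF3B4 at 0.20 (SE 0.23) and SF3B6, which contacts the branch adenosine region, at 0.10 (SE 0.24).

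The SNRP genes encode the Sm ring and other proteins of the snRNPs. Toward Meishan lay 10 of their 14 probesets, with a median of 0.26 (0.09 to 0.36 over the scalings, signal settings and single gilts left out), but none was called. SNRPN encodes SmN, a paralog of SmB from an imprinted locus. At Ssc.3875.1.S1_a_at its signals were 618, 524, 397 and 553 in Meishan and 301, 299, 198 and 249 in Yorkshire gilts, with every Meishan gilt above every Yorkshire gilt. The difference was 1.00 (SE 0.22, fold 2.00), with an adjusted p of 0.120 and a call in 5 of 19 alternatives. At Ssc.3875.2.A1_at, from the same cluster, it was 0.35 (SE 0.20). The array was designed from short transcript sequences, and whether these probesets also bind SNRPB transcripts was not tested.

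SNRPA1, a U2 snRNP protein, had probesets on both sides. At Ssc.14146.1.A1_at the signals were 20.6, 98.0, 27.7 and 177 in Meishan and 253, 175, 269 and 198 in Yorkshire gilts. Meishan gilts 1 and 3 were the lowest while gilt 4 lay among the Yorkshire gilts, and the difference was -1.97 (SE 0.66, adjusted p = 0.230). At Ssc.14147.1.A1_at, named only in the study's list, it was -0.71 (SE 0.23), with the highest Meishan gilt at 224 and the lowest Yorkshire gilt at 226. At Ssc.1777.1.S1_at it was 0.29 (SE 0.20). The ratio of Ssc.14146.1.A1_at to Ssc.1777.1.S1_at differed by -2.26 (SE 0.62), which was not called (adjusted p = 0.111).

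Apart from SNRPN, the Sm ring subunits overlapped between breeds at every probeset. SNRPB lay at 0.24, SNRPD1 at 0.27, SNRPD3 at -0.25, SNRPF at 0.22 and SNRPG at 0.36 and 0.27 (SE 0.20 to 0.36). SNRPD1 read 3082, 1187, 1483 and 2451 in Meishan and 1674, 1296, 1247 and 2312 in Yorkshire gilts, so gilts of one breed differed more among themselves than the breeds did. The U1 proteins SNRPA and SNRPC lay at 0.26 and 0.29 (SE 0.22 each), and the U2 protein SNRPB2 at -0.45 (SE 0.27).

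**Figure D4:**
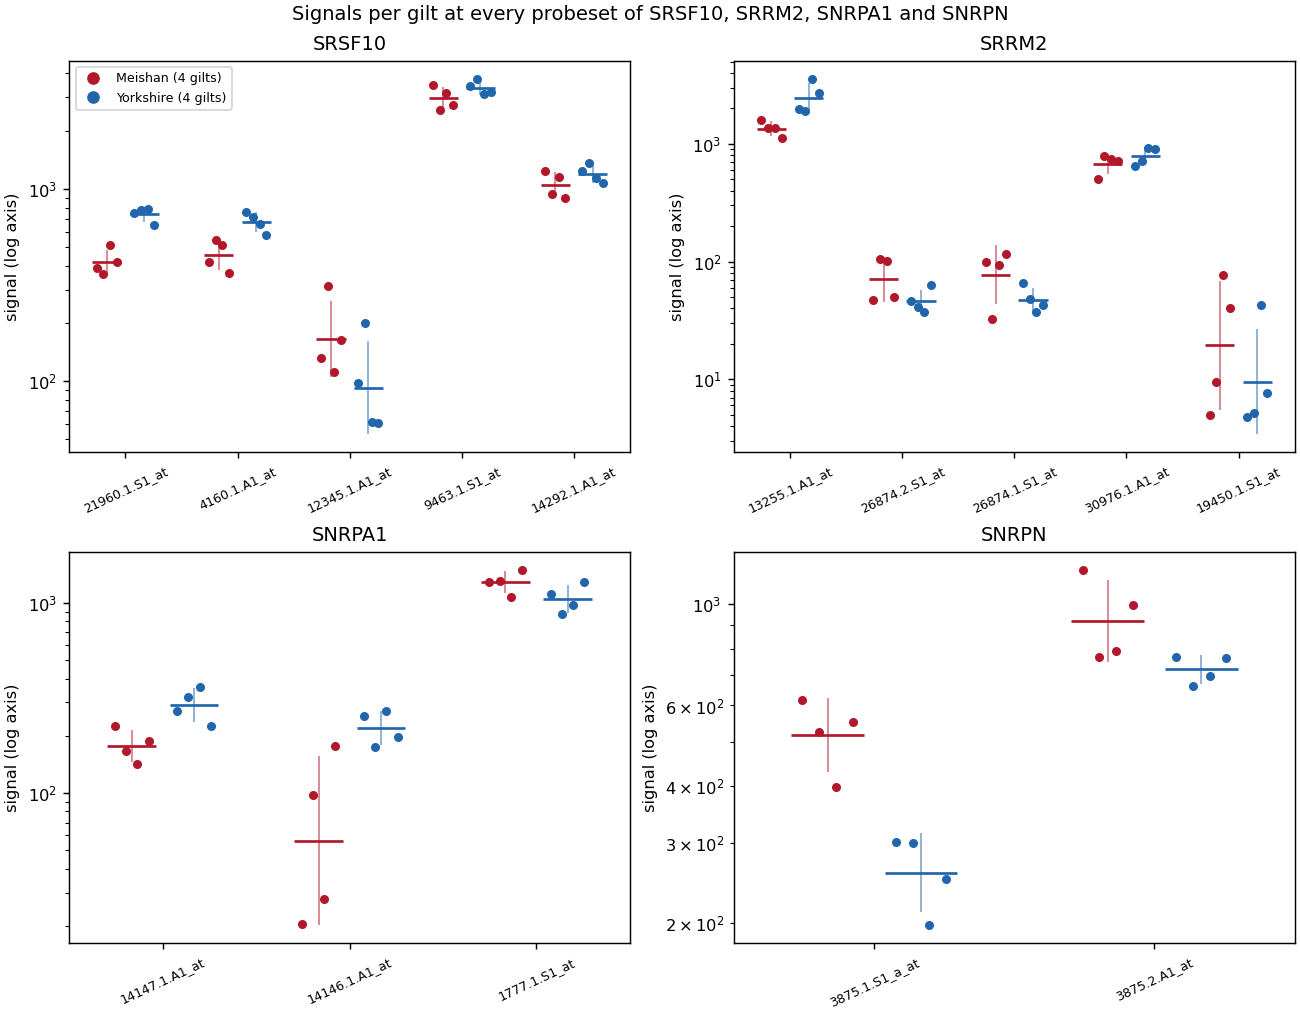
Signal of each gilt (points, log axis) at every probeset of SRSF10, SRRM2, SNRPA1 and SNRPN, with the geometric mean (line) and 1 SD on the log2 scale (bar) of each breed, n = 4 gilts. For SRSF10, SRRM2 and SNRPA1, probesets of one gene lie on both sides of no difference, and for SNRPN both lie toward Meishan. The 3 SRRM2 probesets toward Meishan had low signals.

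LSM proteins form rings on U6 snRNA and, in another combination, on mRNA marked for decay. Toward Yorkshire lay 7 of 9 probesets, with a median of -0.30 (-0.38 to -0.20 over the same alternatives), and none was called. LSM3, a ring subunit, read 547, 315, 384 and 269 in Meishan and 1256, 723, 646 and 643 in Yorkshire gilts. The breeds did not overlap, and the difference was -1.10 (SE 0.31, adjusted p = 0.180). LSM6, another ring subunit, gave -0.53 (SE 0.18, adjusted p = 0.225) at Ssc.23897.1.S1_a_at, where Meishan gilts read 231 to 281 and Yorkshire gilts 307 to 425. The array annotation names that probeset LSM6 and the study's list names it ILDR1, so its gene is uncertain. Its other probesets gave -0.32 (SE 0.26) and -0.27 (SE 0.23), with overlap.

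LSM12, an LSM domain protein outside these rings, split. At Ssc.28144.1.A1_at the signals were 97.6, 127, 148 and 148 in Meishan and 71.3, 73.9, 83.4 and 57.4 in Yorkshire gilts. Every Meishan gilt lay above every Yorkshire gilt, at 0.86 (SE 0.21, adjusted p = 0.144). At Ssc.24956.3.A1_a_at the difference was -0.61 (SE 0.41), and the within-gilt ratio of both was not called (adjusted p = 0.169). The remaining subunits LSM2 at -0.30 (SE 0.21) and LSM7 at 0.38 (SE 0.21) overlapped between breeds, as did LSM14A, a protein of mRNA granules, at -0.21 (SE 0.18).

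Many PRPF proteins act in the U4/U6.U5 tri-snRNP, in the Prp19 complex or at the second splicing step. Toward Yorkshire lay 11 of 13 probesets, with a median of -0.17 (-0.26 to -0.06), but apart from PRPF39 none had an unadjusted p under 0.05. PRPF18, a factor of the second step, gave -0.29 (SE 0.18, adjusted p = 0.503). PRPF38B gave 1.62 (SE 0.93) at Ssc.11803.1.A1_at, the largest value toward Meishan among the members, at signals between 2.74 and 66.2 that overlapped. Its other probesets gave -0.26 and -0.15 (SE 0.18 each). PRPF3, PRPF4, PRPF19, PRPF31, PRPF38A and PRPF4B lay between -0.22 and 0.08.

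Among the 26 hnRNP probesets, 12 lay toward Meishan and 14 toward Yorkshire, which became 17 and 9 without further scaling, 14 and 12 after quantile and 13 and 13 after cyclic loess normalization. All probesets gave 13711 and 10288, 12215 and 11784, and 12118 and 11881 in the same order. The HNRNPH2 probeset described above was the single one with an unadjusted p under 0.05 (3.85%, beside 14.8% of all probesets). HNRNPR gave 0.45 (SE 0.21, adjusted p = 0.374) at Ssc.6689.1.S1_at, where Meishan gilts read 399 to 563 and Yorkshire gilts 253 to 384. At its other probeset it gave -0.04 (SE 0.22). HNRNPA1, which represses exons, read 5491, 3854, 6445 and 4743 in Meishan and 4079, 3105, 4025 and 4191 in Yorkshire gilts, with a difference of 0.40 (SE 0.22, adjusted p = 0.435).

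HNRNPK, a poly(C) binding protein, was among the members that varied least between gilts of a breed (SD 0.11 at both probesets). At Ssc.16654.1.A1_at the Meishan gilts read 7062 to 7720 and the Yorkshire gilts 5411 to 6639, without overlap, for a difference of 0.23 (SE 0.16). At Ssc.16654.1.A2_at the breeds overlapped, at 0.05 (SE 0.16). HNRNPL, a regulator that binds CA repeats, varied most of the members with a mean of at least 64 in both breeds (SD 1.66). Yorkshire gilt 4 read 97.3 there and the other Yorkshire gilts 1468 to 2877, and the difference was -0.03 (SE 1.02).

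The other hnRNP genes had no unadjusted p under 0.05. HNRNPA2B1, a close relative of HNRNPA1, gave -0.34, -0.33 and 0.02 at its 3 probesets, and HNRNPC, which binds runs of U, 0.37 and 0.04. HNRNPD and HNRNPDL, binders of AU-rich elements, lay between -0.25 and -0.04 at 4 probesets. HNRNPA3, HNRNPF, HNRNPH1 and HNRNPM lay within 0.10 of 0, HNRNPH3 at -0.40 (SE 0.22) and HNRNPU, a nuclear scaffold protein, at 0.40 (SE 0.24). HNRNPUL1, a relative of HNRNPU, gave -0.00 (SE 0.21) at one probeset and 0.57 (SE 0.95) at the other, where Yorkshire gilt 3 read 4.25. HNRNPAB read 3571, 1014, 1608 and 2832 in Meishan and 1706, 1240.5, 1895 and 3235 in Yorkshire gilts, a wide spread within each breed beside a difference of 0.09 (SE 0.45).

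Many members shared the order of the gilts. Meishan gilt 1 was the highest of its breed at 61 of 109 members (56.0%), against 31.0% of all probesets, and Meishan gilt 2 was the lowest at 44 (40.4%), against 27.8%. Yorkshire gilt 4 was the highest of its breed at 39 (35.8%), against 27.6%. These counts are a description, since the members of one array are not independent. The order was clearest for SNRP and hnRNP probesets, where Meishan gilt 1 was highest at 9 of 14 and 16 of 26 and Yorkshire gilt 4 at 7 of 14 and 14 of 26. The median deviation of the SNRP probesets from their means over 8 gilts was 0.52 in Meishan gilt 1 and -0.19 in Meishan gilt 2, a gap larger than the breed median of 0.26. The 128 probesets of other splicing genes, described below, shared the order. Their median deviation was 0.21 in Meishan gilt 1, -0.19 in Meishan gilt 2 and 0.22 in Yorkshire gilt 4. Over all members it was 0.20, -0.18 and 0.12.

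Control probesets of the arrays also varied among the gilts, both those that track RNA quality by their 5′ to 3′ ratio and the spike-in controls. The ratio of the 5′ to the 3′ control probeset of GAPDH was, in gilt order, 0.293, 0.140, 0.219 and 0.241 for Meishan and 0.247, 0.201, 0.176 and 0.296 for Yorkshire. That of actin was 0.642, 0.301, 0.344 and 0.380 in Meishan and 0.497, 0.404, 0.225 and 0.442 in Yorkshire. Meishan gilt 1 was thus highest of its breed on both ratios and Meishan gilt 2 lowest, while Yorkshire gilt 4 was highest of its breed for GAPDH but not for actin. The mean signal of 27 spike-in control probesets, which do not track the quality of the sample RNA, was 3564 to 5888 in Meishan and 1748 to 2463 in Yorkshire. There was no overlap, so this difference between arrays cannot be told apart from breed. The part of these in the levels of the members was not tested. Leaving out Meishan gilt 1 moved the median difference of the members to -0.12, and leaving out Meishan gilt 2 moved it to 0.04. With 3 gilts against 4, members without overlap then numbered 24 (22.0%, beside 17.0% of all probesets) and 25 (22.9%, beside 15.3%).

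**Figure D5:**
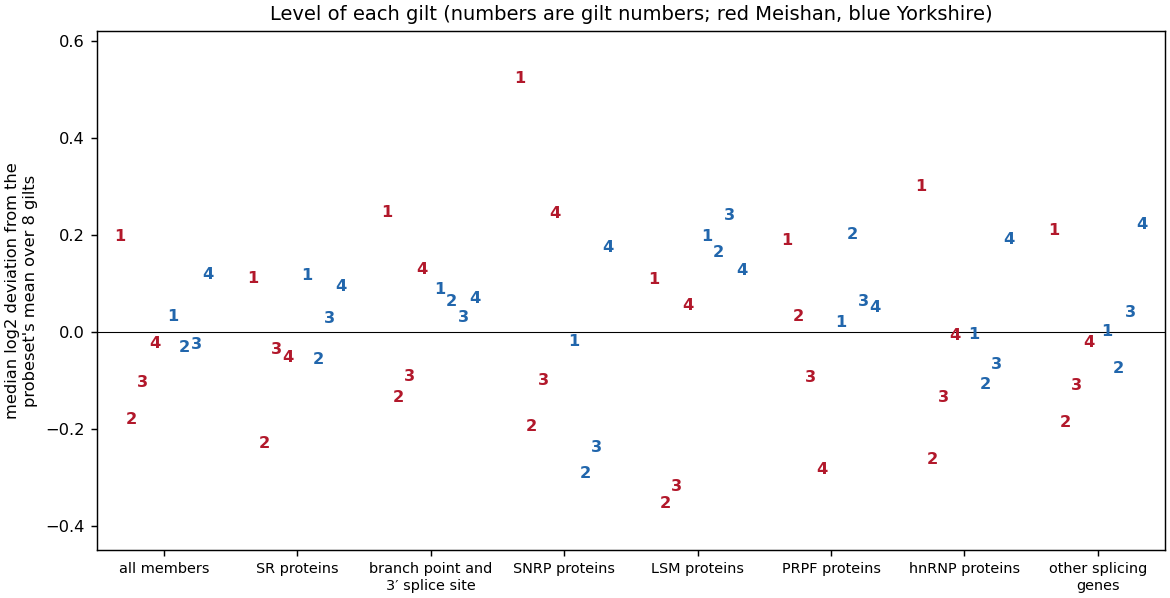
Median log2 deviation of each gilt from the mean over 8 gilts of each probeset, for all 109 members, 6 role groups and 128 probesets of other splicing genes (red, Meishan; blue, Yorkshire; each number is the gilt). Meishan gilt 1 is at 0.20 and Meishan gilt 2 at -0.18 over all members.

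The tissue label was checked against 51 probesets of 33 marker genes, of which none was called and 7 had an unadjusted p under 0.05 (13.7%, beside 14.8% of all probesets). The epithelial marker EPCAM read 8519.7 to 13769.9 over the 8 gilts, the stromal marker VIM 16112 to 26915 and ACP5 (uteroferrin, secreted by pig endometrial glands) 14086 to 28115. Summed signals of the 7 stromal probesets were 57125 to 62652 in Meishan and 46062 to 55091 in Yorkshire, and of the 11 endothelial probesets 6175 to 6377 and 6522 to 7987. These sums did not overlap between breeds, but they weigh the brightest probesets most. By probeset, 5 of the 7 stromal ones lay toward Meishan. VIM lay at 0.47 (SE 0.16), COL1A2 at 0.24 (SE 0.41) and -0.97 (SE 0.37) and COL3A1 at -0.79 (SE 0.72). DCN lay at 0.27 (SE 0.16) and 0.87 (SE 0.54) and LUM at 0.07 (SE 0.24). Of the 11 endothelial ones, 5 lay toward Meishan and 6 toward Yorkshire. PECAM1 lay at 0.33 (SE 0.24) and 0.11 (SE 0.17) and CDH5 at -0.58 (SE 0.17) and 0.08 (SE 0.20). VWF lay at -0.53 (SE 0.32), 1.38 (SE 0.83) and 0.44 (SE 0.22). TEK lay at -0.61 (SE 0.86), -0.77 (SE 0.40) and -0.32 (SE 0.19) and TIE1 at -0.25 (SE 0.29). The 5 leukocyte probesets summed to 661 to 1216 in Meishan and 598 to 800 in Yorkshire. By probeset, 3 lay toward Meishan, ITGB2 at 0.66 (SE 0.26) and CD14 at 0.60 (SE 0.32) and 1.58 (SE 0.64). The last had signals no higher than 47.6. The other 2 lay toward Yorkshire, CD3E at -0.66 (SE 0.27) and PTPRC at -0.20 (SE 0.21). IFNG, an interferon that the pig conceptus secretes, read 4604 and 6286 in Yorkshire gilts 1 and 3 and 14.2 to 904 in the other gilts. The breeds overlapped, with a difference of -2.23 (SE 1.91). The other conceptus markers read no higher than 90.3 (CYP17A1), 134 (POU5F1) and 268 (GATA3). Of all 7 conceptus probesets, 3 had the higher mean in Meishan and 4 in Yorkshire, and 0 reached an unadjusted p under 0.05. The part of these cell types in the differences above was not tested.

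Other genes of the pathway were taken as 128 probesets of 80 genes, namely further spliceosome proteins, the exon junction complex, kinases and transport of SR proteins, snRNP assembly and regulators of alternative splicing. Toward Meishan lay 58 and toward Yorkshire 70, with a median of -0.04, which turned to 69 and 59 without further scaling and 71 and 57 after quantile or cyclic loess normalization. All probesets gave 13711 and 10288 without further scaling, 12215 and 11784 after quantile and 12118 and 11881 after cyclic loess normalization. None was called by limma (0 of 128), and 15 had an unadjusted p under 0.05 (11.7%, beside 14.8% of all probesets), 3 higher in Meishan and 12 in Yorkshire (2.34% and 9.38%, beside 7.79% and 6.96%). Without overlap were 12 (9.38%, beside 10.1%), 1 with Meishan and 11 with Yorkshire higher (0.781% and 8.59%, beside 5.01% and 5.09%), which became 4 and 7 without further scaling or after quantile normalization and 3 and 9 after cyclic loess normalization. In alternatives with a signal threshold, another prior or Storey q-values, up to 4 were called. The share of all probesets called in those settings is not given here.

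The 5 with the lowest p belonged to the spliceosome list. DDX39B, an RNA helicase of early assembly and mRNA export, read at Ssc.12005.1.A1_at 7450.4, 9055, 3721 and 2993 in Meishan and 477, 609, 1702 and 2436 in Yorkshire gilts, all Meishan gilts above all Yorkshire gilts, for a difference of 2.32 (SE 0.61, adjusted p = 0.159). At its other probeset, Ssc.11719.1.A1_at, it gave -0.22 (SE 0.19), with overlap. CDC5L, of the Prp19 complex, read at Ssc.25056.1.S1_at 741, 577, 688 and 632 in Meishan and 959, 1109, 1149 and 1068 in Yorkshire gilts, the other way round, at -0.70 (SE 0.17, adjusted p = 0.132), and at Ssc.14155.1.A1_at it gave -0.46 (SE 0.18), also without overlap. SNW1, DDX46 and RBM17, all spliceosome components, had every Yorkshire gilt above every Meishan gilt at Ssc.17288.3.S1_at, Ssc.22645.1.S1_at and Ssc.13395.1.S1_at, with -0.95 (SE 0.25), -0.69 (SE 0.20) and -0.61 (SE 0.18). The other DDX46 probeset, Ssc.8127.1.A1_at, lay on the other side at 0.48 (SE 0.24), and the other SNW1 probeset, Ssc.17288.1.S1_at, gave -1.91 (SE 1.01) at signals no higher than 67.8. None of the 5 was called.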

How the data were processed

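Endometrium of 4 Meishan and 4 Yorkshire gilts was hybridized to one-colour arrays, 1 array per gilt. The authors deposited linear intensity values per probeset, computed in GCOS 1.2, the array maker's software. Their 2% trimmed mean lay between 500.09 and 500.106 on all arrays, so a common scaling had been applied. The authors' own test was a mixed model in SAS on natural logs with q-values. Each array holds 24123 probesets, of which 124 controls were left out of the tests.

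Analysis used R 4.3.3, limma 3.58.1 and Python 3.11.15. Signals were put on the log2 scale and each array was centred on its median. Breeds were compared with lmFit and eBayes, whose prior had 2.09 degrees of freedom. P-values of 23999 probesets were adjusted by the Benjamini-Hochberg method and called under 0.1. Probeset pairs of a gene were fitted in the same way on their log2 ratio within each gilt. Both procedures were tested on simulated data. The number of arrays limits the precision, and detection calls were not used.

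The members and lists were chosen with earlier results of these data known. Symbols are those of the array annotation, else of the study's list of differing probesets, of which 2502 symbols were used and no values. Named are called members with all probesets of their genes, members with an unadjusted p under 0.05, the 3 lowest p of each role group, genes with a called pair, and the 5 lowest p among other splicing genes. The remaining members and the control and marker probesets in the text are named besides, with their values known. No sequence was printed, since none was in the tables used here.

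Alternatives were the signals without further scaling, normalization by quantile or cyclic loess, a floor of 32 on signals, a mean signal of at least 64, an intensity trend, no moderation, array weights, Storey q-values (lambda 0.5), calls under 0.05, a block for the replicate number, each gilt left out, and platform names only. Medians and sides of role groups and members, shares over all probesets under these, and the share of called pairs by annotation names alone were added after seeing the data.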

Additional observations from a re-analysis of the deposited data

Results flagged for a closer look

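In 14 of 218 groups (109 probesets in 2 breeds) 1 gilt stood apart from the other 3 by Dixon's ratio on the log2 scale (95% critical value), where chance gives about 1 in 20. Of the 14, 6 were Meishan gilt 1 and 4 Yorkshire gilt 3.

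Meishan gilt 1 was high for HNRNPD Ssc.19878.3.S1_a_at (4998 against 3302 to 3531), HNRNPH2 Ssc.3216.1.A1_at (1186 against 488 to 552), PRPF19 (1322 against 879 to 893), PRPF3 (743 against 626 to 641), PRPF38A (1039.9 against 707 to 742) and SRSF7 (3812 against 2349.6 to 2499.9). Yorkshire gilt 3 was low for U2AF2 (7.62 against 63.0 to 90.7), HNRNPK Ssc.16654.1.A1_at (5411 against 6448 to 6639) and SRSF7 (2031 against 2679.7 to 2781), and high for HNRNPUL1 Ssc.2835.1.S1_at (2822 against 2127 to 2159.7). Meishan gilt 4 was low for PRPF39 Ssc.12960.1.S1_at (41.0 against 119 to 127) and Meishan gilt 2 for SRRM2 Ssc.26874.1.S1_at (32.8 against 93.9 to 116). Yorkshire gilt 2 was low for HNRNPA1 (3105 against 4025 to 4191), and Yorkshire gilt 4 was high for SNRPD3 (3636 against 2284 to 2421). The causes of these were not tested.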

How the results depend on the processing

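HNRNPH2 Ssc.3216.2.A1_at was called in 18 of 19 alternatives, with the block as the exception (adjusted p = 0.124). SF1 Ssc.30179.1.A1_at had a limma adjusted p under 0.1 in 11. These include the threshold of 0.05, at which SF1 (0.0624) was not called. With 2 members called in the report, the count was 7 with signals below 32 set to 32, 7 with a mean signal of at least 64, 8 with an intensity trend, 4 with array weights, 4 with Storey q-values and 1 at a threshold of 0.05, and 1 to 2 without single gilts. An unmoderated model also called 2, HNRNPH2 and SRSF10 in place of SF1. The 3 called pairs became 11, 8, 11, 6 and 7 in the first 5 of these settings, 1 with platform names only, and 1 to 3 without single gilts. The 0 called other splicing probesets became 4 with the floor, 3 with the signal threshold, 3 with the trend, 1 unmoderated and 1 with Storey q-values. The share of all probesets or pairs called in each of these settings is not given here. The counts are therefore no result about the members or the other splicing genes. Members without overlap numbered 18 to 25 without single gilts (16.5% to 22.9%, beside 12.7% to 17.0% of all probesets). Fewer gilts overlap less often. The median of the members lay between -0.12 and 0.04. PRPF39 Ssc.12960.1.S1_at took values from -0.85 to 0.12 when single gilts were left out, turning to 0.12 (Meishan gilt 4 omitted) and 0.05 (Yorkshire gilt 1 omitted), and the cause was not tested. SF1 Ssc.29048.2.S1_at was at 0 under the floor and had no value with the signal threshold. Of all 109 members, 17 changed side under at least one of the 3 other scalings, all at differences no larger than 0.11 in size. HNRNPM, HNRNPL, HNRNPR Ssc.2292.1.A1_at, HNRNPUL1 Ssc.2835.1.S1_at, PRPF38A, SRSF6 Ssc.9241.2.A1_a_at, SRSF9 Ssc.5220.1.S1_at and SRSF11 Ssc.23780.3.S1_a_at did so under all 3. The rest, such as SF3B1 Ssc.3000.1.S1_at, did so under fewer. Under at least one of 13 scalings, floors, weights or omitted gilts, 37 changed side.

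Replicate numbers showed no pairing, with correlations of -0.0561, 0.089, 0.00105 and 0.0407 between the deviations of same-numbered gilts, and 2 of 4 Meishan gilts correlated best with the Yorkshire gilt of their own number. With the number as a replicate block, 0 members, 1 pair and 0 other splicing probesets were called. Low signals limit what probesets below 64 can show.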
